A study of Mus musculus with 8 samples.

Results

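Aged mouse haematopoietic stem cells in this series carried a block of 10 predicted ("Gm") transcripts, Gm10800, Gm26870, Gm37158, Gm17615, Gm37954, Gm21833, Gm21962, Gm10717, Gm17555 and Gm10719, which are described here out of 18174 genes in the deposited tables. They were selected on their share of each library's transcripts, above all that of Gm10800 and Gm26870, so their abundance is a description of the choice and not a finding. The cells were long-term haematopoietic stem cells of C57BL/6J wild-type male mice aged 18 months, untreated, sorted from bone marrow as Lin-CD150+CD48-CD34-Kit+Sca1+ and split by surface Dlk1, a membrane protein encoded by an imprinted gene, into Dlk1+ and Dlk1-. Each group had 4 libraries of single cells made with CEL-Seq2, a method that tags the polyadenylated 3′ end of each molecule with a cell barcode and a random molecular tag (UMI). The labels do not say whether the libraries came from separate animals, so p-values measure only the spread between libraries, which may be technical.

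Each table has 2 sets of 96 barcodes, the lower numbers used by the Dlk1+ and the upper by the Dlk1- libraries, and the set a library did not use served as background. A cell was kept when its barcode, from the library's own set, held at least 1000 transcripts. That left 96, 28, 30 and 91 cells in Dlk1+ replicates 1 to 4 and 96, 36, 95 and 94 cells in Dlk1- replicates 1 to 4, 566 in all, with 44284 to 517559 transcripts per library. The 4 libraries of a group used the same 96 barcodes, and no own barcode number was shared between the groups, so barcode set and group cannot be told apart. Dlk1+ replicate 3 stood apart by depth, with a median of 1296 UMIs per cell against 3385 to 5521 in the other 7 libraries. Dlk1 itself separated the groups, with 446, 658, 361 and 672 CPM in Dlk1+ replicates 1 to 4 and 3.86, 47.7, 12.6 and 50.3 CPM in Dlk1- replicates 1 to 4 (adjusted p = 6.38e-06, limma-voom; CPM is a gene's transcripts scaled to a fixed library total). All 10 stem cell markers checked (Procr, Slamf1 and Hlf among them) were detected, at a summed 1491 to 2609 CPM in Dlk1+ and 1923 to 2468 CPM in Dlk1- libraries. None of 5 T cell markers had a UMI. Of 6 myeloid markers 5 were detected (Lyz2 was at 0), at a summed 0 to 2851 CPM in Dlk1+ and 190.99 to 367 CPM in Dlk1- libraries, and of 4 endothelial markers 3 were detected (Cdh5 was at 0), at 22.6 to 77.7 CPM and 44.4 to 88.04 CPM. Summed erythroid markers were higher in some Dlk1+ libraries, at 592 to 7470 CPM against 768 to 864 CPM, and at 307 to 905 CPM in Dlk1+ once 10 barcodes (17, 20 to 24 and 29 to 32) that carry haemoglobin and liver transcripts in all libraries were left out. Summed hepatocyte markers were at 90.3 to 169.8 CPM in Dlk1+ and 4.21 to 13.5 CPM in Dlk1- libraries, and at 0 to 12.6 CPM in Dlk1+ without those barcodes, whereas the myeloid sum still reached 3192 CPM. The part of these transcripts in the results on the members was tested only by leaving out the 10 barcodes. The Dlk1 values above include those barcodes, and values without them are not given here.

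Satellite DNA consists of short units repeated head to tail. In the mouse the major satellite fills the heterochromatin beside the centromeres and is kept largely silent by repressive histone methylation and DNA methylation, yet it can be transcribed from both strands. LINE-1 elements are retrotransposons dispersed through the genome, which encode an RNA-binding protein and, in the second open reading frame, an endonuclease and reverse transcriptase. Many copies of both kinds were annotated as predicted genes, and reads from any copy may be assigned to whichever annotated one they match.

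The 10 genes were therefore first compared by sequence, since their name as a group, satellite-like, fitted only some of them. Transcripts were taken from GENCODE M21 (build GRCm38, which is mm10); 9 of the 10 matched by symbol, and Gm17615 did not. Gm10800 (chr2:98666547-98667301, minus strand, annotated protein-coding), Gm26870 (chr9:3000282-3038313, minus strand, long intergenic noncoding), Gm10717 (chr9:3025417-3033289, plus strand, protein-coding) and Gm10719 (chr9:3017408-3021593, plus strand, protein-coding) form a satellite family. Identical 21-base words tied them together: 36.1% of the words of Gm10800 also occurred in Gm26870, and 50.5% of those of Gm26870 in Gm10717. Repeated words lay most often 234 bases apart in Gm26870, Gm10717 and Gm10719, and 225 bases apart in Gm10800. Gm26870 matched the other members of the family on the opposite strand alone, and its annotation spans Gm10717 and Gm10719. The first 234 bases of Gm26870 are shown with a stretch of each relative, to make the shared unit and its reversed strand visible. Capitals in Gm26870 mark 66 bases whose reverse complement is capitalised in Gm10800; in Gm10717 and Gm10719, only that stretch is given and capitals mark bases identical to Gm10800.
Gm26870: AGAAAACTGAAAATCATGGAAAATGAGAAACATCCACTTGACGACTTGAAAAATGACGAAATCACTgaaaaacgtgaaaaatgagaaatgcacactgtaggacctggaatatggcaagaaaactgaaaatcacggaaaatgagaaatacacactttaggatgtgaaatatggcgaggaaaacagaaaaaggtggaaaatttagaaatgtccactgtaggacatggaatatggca
Gm10800: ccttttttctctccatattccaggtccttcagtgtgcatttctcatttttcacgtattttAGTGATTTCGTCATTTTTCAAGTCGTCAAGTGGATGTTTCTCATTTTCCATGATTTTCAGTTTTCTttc
Gm10717: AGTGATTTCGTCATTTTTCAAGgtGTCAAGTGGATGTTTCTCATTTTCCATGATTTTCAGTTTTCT
Gm10719: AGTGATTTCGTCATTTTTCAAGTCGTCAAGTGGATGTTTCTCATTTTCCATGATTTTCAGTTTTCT

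Both strands of the unit are skewed in base content. Gm26870 is 45.8% A and Gm10800 is 45.8% T, against medians of 26.1% A and 24.4% T over 141767 annotated transcripts. Only 0.0332% of those transcripts have as high a share of A as Gm26870. Its longest run of A is 6 bases, and that of Gm10800 is 3, against a median of 5 over all transcripts.

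The members Gm21833, Gm21962, Gm17555 and Gm37158 are named LINE-1 here from background knowledge of that element. Gm21833 (chr16:82828382-82829881, plus strand), Gm21962 (chr3:137671524-137672540, plus strand) and Gm17555 (chr2:126215100-126216212, plus strand) are annotated protein-coding, and Gm37158 (chrY:16691330-16697033, minus strand, 5704 bases) is of the class TEC, for loci still awaiting experimental evidence. Gm37158 contained 83.2% of the 21-base words of Gm21962, 52.1% of those of Gm21833 and 40% of those of Gm17555. No word was shared between these 4 genes and the satellite family. One 90-base stretch, from the part that in LINE-1 encodes the endonuclease, shows how near the copies are: Gm21833, Gm21962 and Gm17555 are identical in it, and a capital marks the base at which Gm37158 differs.
Gm21833 (chr16:82828937-82829026): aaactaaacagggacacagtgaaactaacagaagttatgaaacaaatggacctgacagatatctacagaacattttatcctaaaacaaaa
Gm37158 (chrY:16695076-16695165, minus strand): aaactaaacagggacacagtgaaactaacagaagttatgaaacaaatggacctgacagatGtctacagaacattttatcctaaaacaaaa

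Gm37954 (chr1:131376461-131378531, minus strand, also of the class TEC) lies inside Srgap2 on the same strand and shared 8.09% of its words with Gm37158 and 0 with any other member. Its longest stretch in common with Gm37158 is capitalised.
Gm37954 (chr1:131376607-131376700, minus strand): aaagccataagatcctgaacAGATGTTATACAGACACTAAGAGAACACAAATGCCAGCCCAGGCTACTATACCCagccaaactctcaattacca

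The group thus held 4 satellite genes, 4 LINE-1 genes, Gm37954 with a LINE-1 stretch, and Gm17615 without a sequence here. Because copies are nearly identical, and because Gm26870 overlaps 9 annotated genes on the opposite strand while no source used here says whether counting used strand, the split of reads among members of a family is uncertain. Srgap2 reads could likewise be counted for Gm37954.

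**Figure D1:**
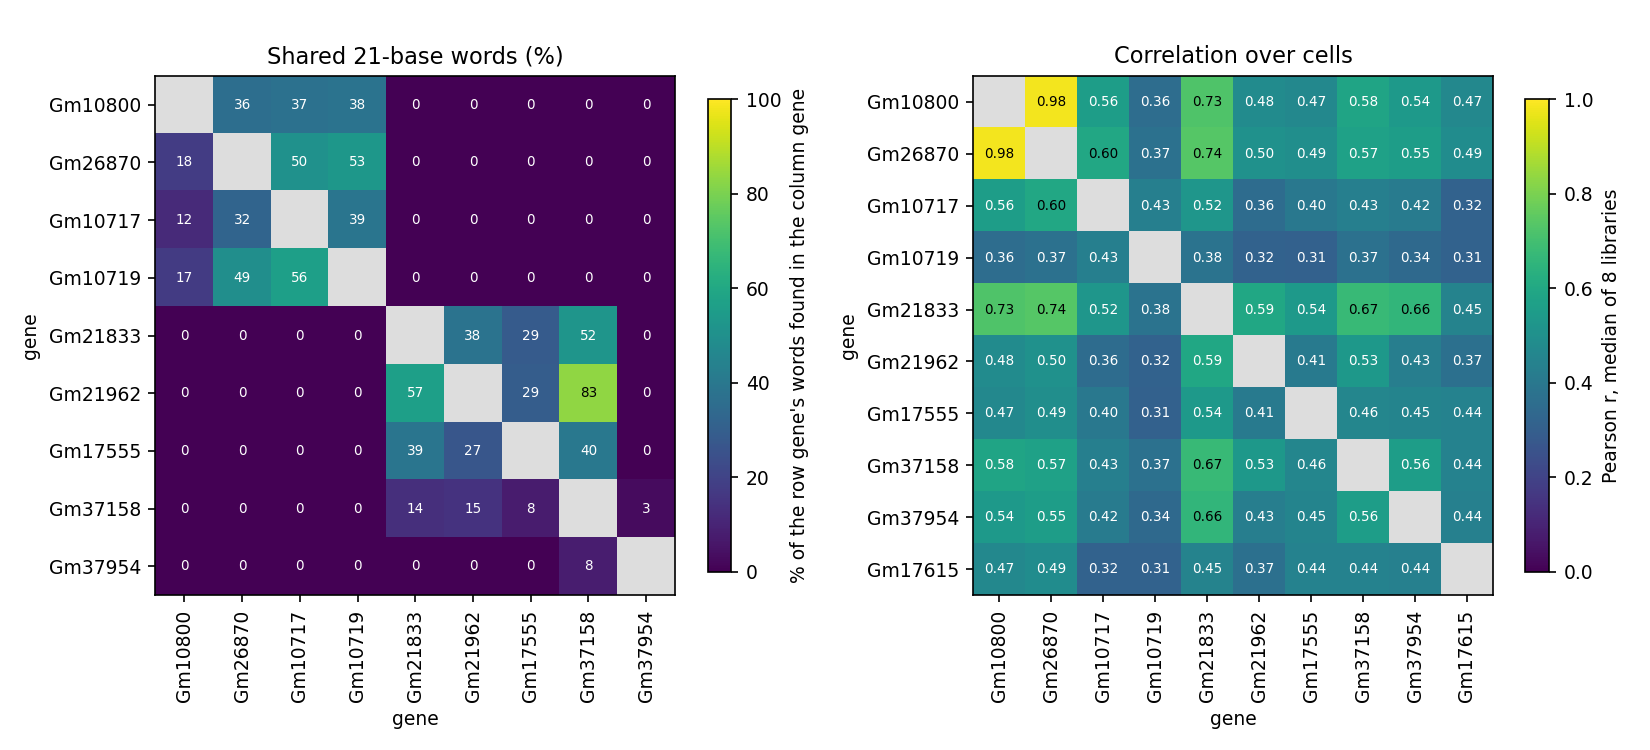
Left, percent of the row gene's 21-base words found in the column gene on either strand (9 genes with a transcript). Right, Pearson r over cells between members, as the median of 8 libraries. Sequence splits the genes into blocks with 0 shared words between satellite and LINE-1 members, and the correlations show no such empty blocks.

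The 10 genes together took 33.2%, 23.5%, 23.98% and 10.4% of the transcripts in Dlk1+ replicates 1 to 4 and 27.04%, 27.5%, 23.2% and 12.1% in Dlk1- replicates 1 to 4. The groups overlapped fully, with means of 22.8 ± 9.41% in Dlk1+ and 22.5 ± 7.19% in Dlk1- (SD, n = 4 each). Replicate 4 was the lowest library of both groups. The groups also overlapped within plate 5 (replicates 1 and 2) and within plate 6 (replicates 3 and 4), as the deposited names give the plates.

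Gm10800 alone made up 24.8%, 17.2%, 19.6% and 7.42% of the Dlk1+ libraries and 19.2%, 18.4%, 16.6% and 8.38% of the Dlk1- libraries. Gm26870, annotated on the other strand of the unit, made up 7.16%, 5.91%, 3.73% and 2.58% of the Dlk1+ and 7.18%, 8.26%, 6.19% and 3.34% of the Dlk1- libraries. These 2 genes held 96.3% to 98.6% of the summed member transcripts of a library. The method is designed to read 1 tag per molecule at its end, so these shares are not divided by transcript length. Whether each tag of these repeats marks the end of a separate molecule was not tested.

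The remaining satellite members were minor. Gm10717 ranged from 0.0201% to 0.0543% of a library, and Gm10719 from 0.0065% to 0.0226%, the lowest of the 10 genes, with 309 UMIs in all 566 cells.

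Among the LINE-1 members, Gm21833 was the most abundant, at 0.673%, 0.146%, 0.362% and 0.16% of the Dlk1+ and 0.302%, 0.368%, 0.205% and 0.163% of the Dlk1- libraries. Dlk1+ replicate 1 was highest and Dlk1+ replicate 2 lowest, so the Dlk1+ libraries enclosed the Dlk1- ones. Gm37158 (0.042% to 0.176%), Gm21962 (0.02% to 0.0874%) and Gm17555 (0.0134% to 0.0499%) were lower. The summed LINE-1 share did not simply follow the satellite share: Dlk1+ replicate 2 had 23.2% satellite and 0.222% LINE-1 transcripts, and Dlk1+ replicate 3 had 23.4% and 0.558%. Gm37954 took 0.0429% to 0.14% and Gm17615 took 0.0143% to 0.05%.

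By mean over 8 libraries the order was Gm10800 (16.5 ± 5.84%), Gm26870 (5.54 ± 2.08%), Gm21833 (0.297 ± 0.177%), Gm37158 (0.0866 ± 0.0419%), Gm37954 (0.0757 ± 0.0386%), Gm21962 (0.0562 ± 0.0247%), Gm10717 (0.031 ± 0.0129%), Gm17555 (0.0299 ± 0.0144%), Gm17615 (0.0292 ± 0.0141%) and Gm10719 (0.011 ± 0.00579%). From Gm37158 to Gm21962, and again from Gm10717 to Gm17615, neighbours in this order differed by less than 1 SD.

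**Figure D2:**
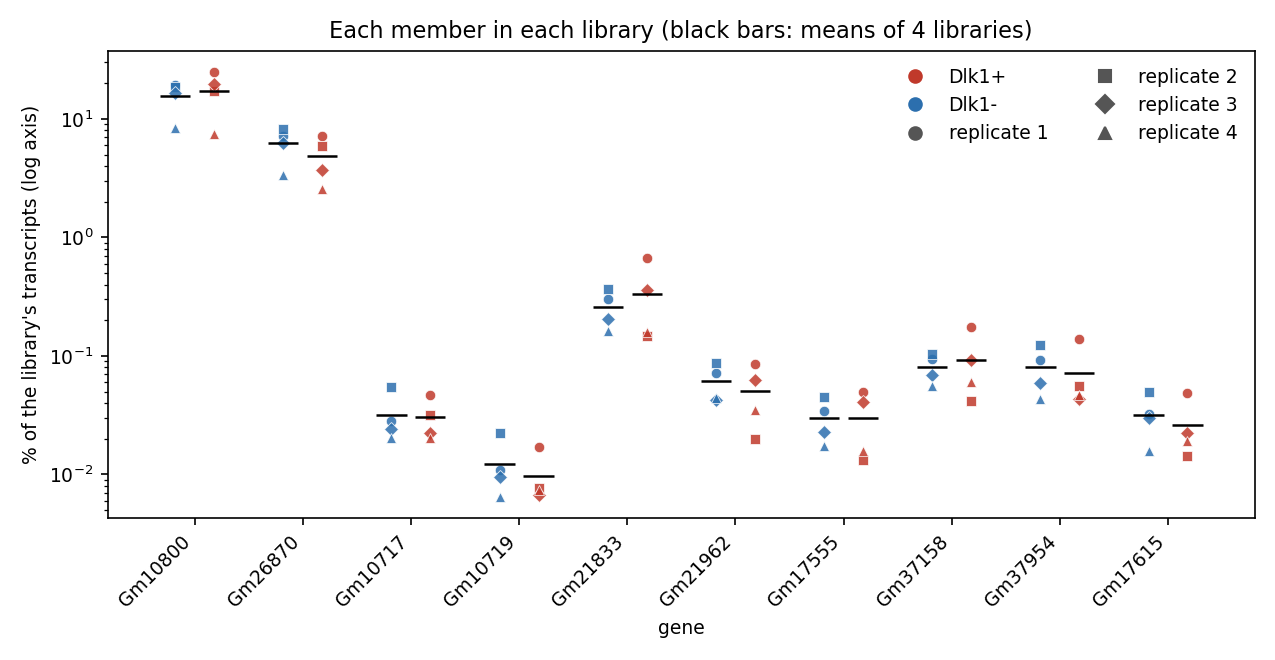
Percent of each library's transcripts (log axis) for each gene, Dlk1- in blue and Dlk1+ in red, with a symbol per replicate and black bars at the means of 4 libraries. The groups overlap for all 10 genes, and replicate 4 (triangles) is the lowest library for Gm10800 and Gm26870 in both groups.

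The question of the sort, whether Dlk1+ and Dlk1- cells differ, was put to these genes by summing transcripts over the cells of each library and fitting all 6017 genes that passed the low-count filter with limma-voom. All 10 members passed the filter. The fit called 4 genes at an adjusted p under 0.05, all higher in Dlk1+ (Dlk1, Ttr, Igf2 and Timp3), or 0.0665% of those tested, and 0 of the 10 members. Ttr is a liver gene carried by the 10 barcodes, which are own barcodes only in Dlk1+; without them Ttr had no UMI in any kept cell, and 2 genes were called. At an unadjusted p under 0.05 it took 6.73% of all genes and again 0 members. CPM of the groups did not overlap for 3.32% of all genes in either direction, and for 0 members.

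Gm10800 averaged 172709 ± 73006 CPM over the Dlk1+ libraries and 156452 ± 49637 CPM over the Dlk1- libraries (SD, n = 4 each), a log2 difference of 0.06 ± 0.36 (SE; adjusted p = 0.991). Gm26870 had 48465 ± 20723 against 62431 ± 21133 CPM, a log2 difference of -0.42 ± 0.35 (adjusted p = 0.849), the lowest of the 10. Gm21833 had 3350 ± 2457 against 2594 ± 929 CPM, a log2 difference of 0.14 ± 0.42 (adjusted p = 0.968), the highest. The median over the members was -0.13, with 4 of 10 above 0, and over all 6017 genes it was -0.05, with 2655 above 0. Errors of 0.35 to 0.42 on the log2 scale set the precision of these differences in this fit, which used no pairing. With a term for replicate number the errors ran from 0.15 for Gm10800 to 0.34 for Gm10719. The sign of the difference was not stable for 8 of the 10 genes: leaving out Dlk1+ replicate 1 moved Gm10800 to -0.26, and leaving out Dlk1+ replicate 4 moved it to 0.48.

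The ratio of the 2 most abundant satellite genes, as the authors' counting split their reads, did not overlap between the groups, although neither level passed the test. There were 3.47, 2.91, 5.26 and 2.87 Gm10800 transcripts per Gm26870 transcript in Dlk1+ replicates 1 to 4, and 2.68, 2.23, 2.68 and 2.51 in Dlk1- replicates 1 to 4. Every Dlk1+ library lay above every Dlk1- library, and therefore also within plate 5 and within plate 6. This ratio was singled out after its values were seen, so it is given without a test, and its groups also used different barcodes. In UMIs, without correction for tags drawn more than once, the ratios were 2.66 to 5.00 in Dlk1+ and 2.00 to 2.45 in Dlk1-. On the scale of transcripts, the difference of the group means was 1.10, and 0.56 without the shallow Dlk1+ replicate 3.

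Cells of the same library differed far more than libraries did. The share of the 10 genes ran from 0.802% to 78.1% over the cells of Dlk1+ replicate 1 (median 27.2%), from 0.55% to 66.4% in replicate 2 (median 18.7%), from 6.95% to 67.7% in replicate 3 (median 17.6%) and from 1.48% to 71.5% in replicate 4 (median 8.61%). In Dlk1- it ran from 1.56% to 65.5% (median 24.002%), 5.68% to 72.9% (median 22.7%), 3.69% to 77.96% (median 18.8%) and 1.14% to 85.2% (median 8.55%). Every library thus had cells with most of their transcripts in these genes, 40 of 566 cells above 50% in all, in numbers from 2 to 13 per library. Another 48 cells were under 5%, of which 39 belonged to replicate 4 of the 2 groups.

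**Figure D3:**
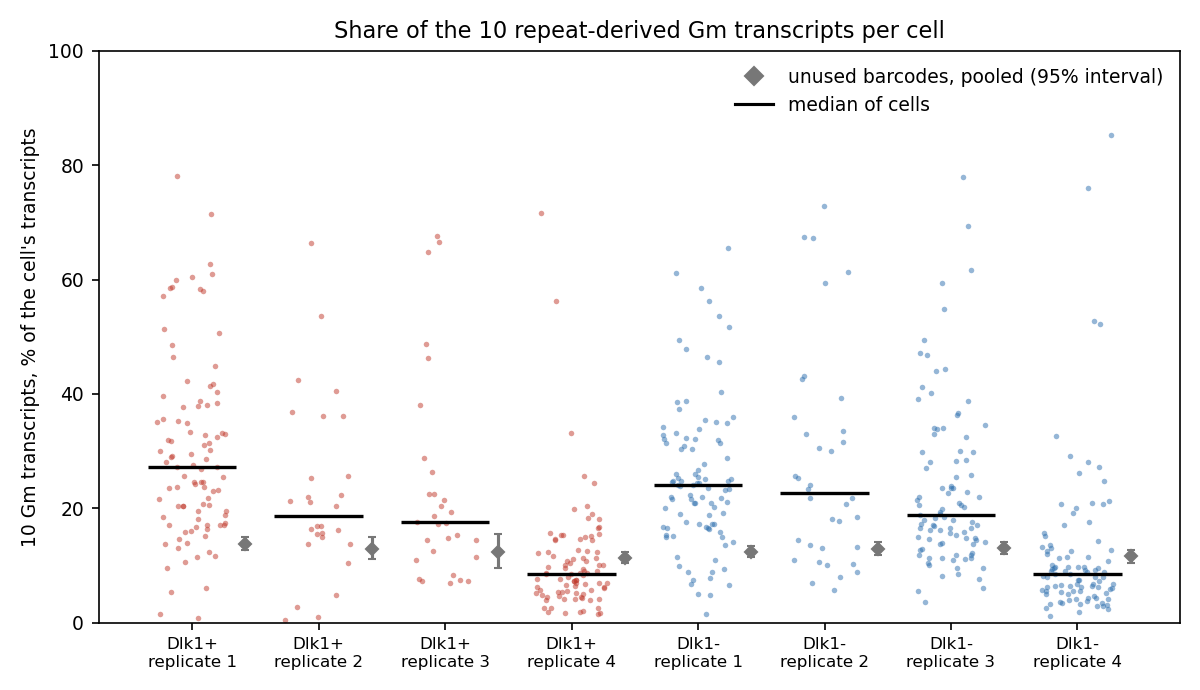
Each point is a cell and gives the 10 genes' percent of its transcripts, by library; black bars are medians, and grey diamonds the share on the unused barcodes (percent of UMIs, 95% interval). Cells of every library spread from under 7% to over 65%, and medians of replicate 4 (8.61% and 8.55%) are the lowest.

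The spread was set against counting noise with a dispersion. For each cell the squared deviation of its UMIs from their expected number was divided by that number. These values were summed and divided by the number of cells minus 1. The dispersion is near 1 if a gene takes a constant share of all cells and grows with abundance if it does not. Gm10800 had 160 to 287 over the 8 libraries and Gm26870 39.3 to 183.6. Over other genes with at least 500 UMIs in a library, 1 to 120 genes per library, the median dispersion was 1.68 to 13.3. The highest of those other genes was mt-Rnr2, a mitochondrial ribosomal RNA, in 5 libraries, at 13.3 to 58.6, and Hba-a1, a haemoglobin gene, in Dlk1+ replicates 1 and 4, at 180.5 and 242; in Dlk1- replicate 2 it was Gm29055, at 43.4. Gm21833 had 6.2 to 123.8, Gm37158 1.47 to 52.6 and Gm37954 1.66 to 30.04. The 4 least abundant genes stayed lower in most libraries, with medians of 3.15 for Gm10717, 2.93 for Gm17555, 2.81 for Gm17615 and 1.6 for Gm10719. For Gm10719, at 3 to 76 UMIs per library, the depth leaves little room to see a spread.

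Single cells carried the extremes. In Dlk1+ replicate 4, the top cell for each gene held 53.8% of the library's Gm10717, 52.5% of the Gm37158, 40.9% of the Gm21833 and 50% of the Gm10719 UMIs. In Dlk1+ replicate 1, the top cell for each gene held 38.99% of the Gm21833 and 37.3% of the Gm37158 UMIs. Top cells were taken gene by gene, and whether they were the same cell was not tested.

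Molecular tags set an upper limit for the most abundant gene. The random tag has 4096 possible sequences, and Gm10800 reached 3910 of them in 1 cell, which the deposited table converts to 12665 transcripts. Over 2048 Gm10800 UMIs were found in 21 of the 566 cells, in up to 5 cells of a library. On the scale of UMIs the members took 28.6%, 21.4%, 23.02% and 9.50% of the Dlk1+ and 24.2%, 24.04%, 21.2% and 11.2% of the Dlk1- libraries, lower than in transcripts in each library.

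Within a library the 10 genes varied together over cells. Levels were taken as log2 of UMIs per 10000 non-member UMIs plus 1, and Pearson r computed within each library. These are descriptions over cells of the same library. Both genes of a pair were divided by the same non-member UMIs of the cell, which can itself raise r. The part of this shared denominator was not tested. Gm10800 and Gm26870 had r of 0.96 to 0.99 in all 8 libraries. Over the 45 pairs of members, the median of 8 libraries ran from 0.31 to 0.98, with a middle value of 0.46.

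Pairs that share no sequence correlated too. The 16 pairs of a satellite and a LINE-1 gene, which share 0 words, had a median r of 0.48, beside 0.54 for the 6 LINE-1 pairs and 0.49 for the 6 satellite pairs. Gm10800 correlated with Gm21833 at 0.57 to 0.85 over the libraries, with Gm37158 at 0.40 to 0.75, with Gm37954 at 0.48 to 0.67 and with Gm10719 at 0.22 to 0.87. Summed over each family, satellite and LINE-1 levels had r of 0.83, 0.75, 0.71 and 0.66 in Dlk1+ replicates 1 to 4 and 0.65, 0.86, 0.77 and 0.75 in Dlk1- replicates 1 to 4. Low counts limit r for the minor genes: after thinning all cells to 1000 UMIs, the middle value of the 45 pairs was 0.31.

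**Figure D4:**
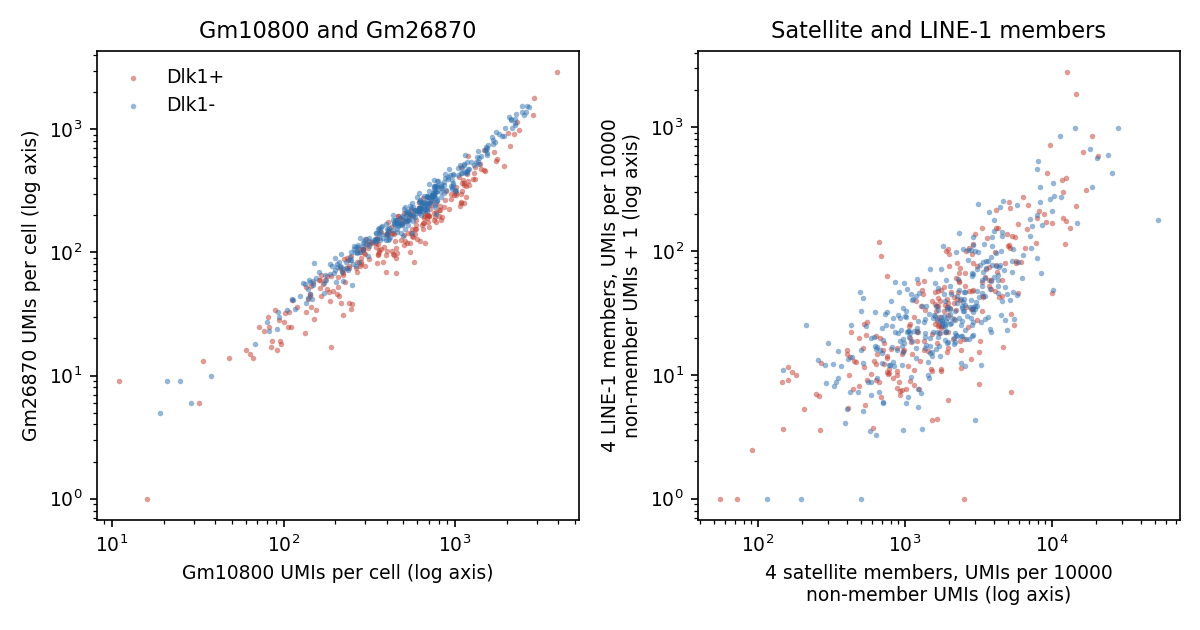
Left, Gm10800 against Gm26870 UMIs in each of 566 cells (log axes). Right, summed satellite against summed LINE-1 UMIs per 10000 non-member UMIs (log axes, 1 added to the vertical values), Dlk1- in blue and Dlk1+ in red. Gm10800 and Gm26870 follow 1 line within a library, with Dlk1+ cells lying lower at a given Gm10800 level. Their r of 0.96 to 0.99 is for log2 of UMIs per 10000 non-member UMIs plus 1, not for the UMIs drawn. The 2 families vary together with more scatter (r of 0.65 to 0.86).

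The members' level went with the rest of a cell's RNA only loosely. Member UMIs per non-member UMI were lower in cells with more non-member UMIs, with Spearman's rho of -0.27, -0.42, -0.70 and -0.47 in Dlk1+ replicates 1 to 4 and -0.26, -0.27, -0.47 and -0.22 in Dlk1- replicates 1 to 4, but non-member UMIs are also the denominator of that ratio. Against all UMIs of the cell, the member share had rho between -0.29 and 0.12. The number of member UMIs itself had rho of -0.37 to 0.32 with non-member UMIs, negative only in Dlk1+ replicate 3. In a log2-log2 line the slope was -0.76 to 0.78, where proportional scaling would give 1. Cells were kept on all transcripts, members included. Near the limit of 1000, a cell with few non-member transcripts thus passed only with many member transcripts. In Dlk1+ replicate 3, 16 of 30 cells had at least 1000 non-member transcripts. With that limit in all libraries, the median rho of the ratio went from -0.34 to -0.25. The part of this limit in single libraries was not tested.

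Other abundant classes went with the members in opposite ways. Transcripts of ribosomal proteins, per non-member UMI, had rho of -0.49 to -0.10 with the members in 7 libraries and 0.06 in Dlk1+ replicate 2. Transcripts of the mitochondrial genome had rho of 0.09 to 0.44 in the 8 libraries. Whether depth or RNA quality has a part in these relations was not tested.

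The genes most like the members were sought among 2686 non-member genes with a UMI in at least 20% of cells, by the mean over 8 libraries of r with the summed members after a straight line on log2 non-member UMIs was removed from both. The 10 highest were Gm29055 (0.67), Gm10715 (0.58), Gm21750 (0.48), Gm37746 (0.45), A430073D23Rik (0.45), RP23-341H2.4 (0.40), Gm42519 (0.39), Gm42445 (0.37), Gm26905 (0.37) and Gm37404 (0.36), against a median of -0.02 and a 95th percentile of 0.08 over all candidates. For 9 of the 10 the r was above 0 in all 8 libraries, and for Gm42445 in 7.

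Most of these genes carry repeat sequence of the same 2 kinds. Gm10715, which lies under Gm26870 on the opposite strand, has 90.8% of its 21-base words in the satellite members. In the LINE-1 members lie 75.4% of the words of Gm26905, 65.1% of Gm21750, 47.2% of Gm37746, 25.1% of Gm37404, 24.98% of Gm42519, 19.7% of Gm42445, 17.8% of A430073D23Rik and 10.1% of Gm29055. RP23-341H2.4 had no transcript of that name in the annotation. Whether reads of the same repeat copies were counted for these genes was not tested. Only 7 of the 2686 candidates had 20% or more of their words in either family, and 6 of these 7 stood among the 10 highest; the seventh, Gm43238, was at 0.28 on place 19.

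At the other end were 5 ribosomal protein genes, Rps25 (-0.29), Rpl3 (-0.28), Rps6 (-0.27), Rpl7 (-0.27) and Rpl13 (-0.25). Of the 50 lowest genes, 33 encode ribosomal proteins, and the 84 ribosomal protein genes among the candidates had a median of -0.14. The 15 mitochondrial genome transcripts had a median of 0.04.

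Further genes of the pathway were taken from lists. Of 12 other predicted genes listed as satellite genes, only Gm10715 (1649 UMIs) and Gm21738 (20 UMIs) were in the tables. The absent genes of this list were not compared by sequence, so whether they hold satellite sequence was not tested. Gm10715 was tested and had a log2 difference of -0.24 ± 0.35 (adjusted p = 0.914, limma-voom).

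Of 28 factors that form heterochromatin or silence repeats, 26 were in the tables, 20 were tested and 0 were called in either direction, with a median log2 difference of 0.01 beside -0.05 for all genes. The highest differences were in Hells, a chromatin remodeller needed for DNA methylation of repeats, at 0.56 ± 0.45, and Dnmt1, the maintenance DNA methyltransferase, at 0.55 ± 0.28. The lowest were in Setdb1, a histone H3 lysine 9 methyltransferase, at -0.81 ± 0.45, and Cbx5, which encodes the heterochromatin protein HP1 alpha, at -0.46 ± 0.33. Over cells, the 11 factors detected widely enough had a median likeness of -0.02 to the members, equal to that of all candidates to 2 decimals, and Atrx, a chaperone partner at pericentromeric heterochromatin, was at 0.02.

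Of 8 ribosomal-RNA-like genes 3 were tested and 0 called, with log2 differences from -0.53 ± 0.35 in Lars2 and -0.20 ± 0.32 in Gm26917 to -0.17 ± 0.49 in Gm42418. Over cells, Gm42418 had a likeness of 0.21. Of 5 nuclear noncoding RNAs 4 were tested and 0 called. Meg3, an imprinted noncoding RNA transcribed next to Dlk1, had the largest difference at 1.53 ± 0.40 (adjusted p = 0.422), then Malat1 at 0.32 ± 0.25, and the lowest were Kcnq1ot1 at -0.20 ± 0.25 and Neat1 at 0.07 ± 0.22. Their likeness to the members was 0.13 for Kcnq1ot1, 0.12 for Malat1, 0.06 for Meg3 and 0.03 for Neat1.

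The unused set of barcodes shows what these genes look like where no cell was sorted. Outside the 10 barcodes named above, the members took 13.7%, 12.9%, 12.3% and 11.4% of the UMIs on unused barcodes in Dlk1+ replicates 1 to 4, and 12.4%, 12.96%, 13.1% and 11.6% in Dlk1- replicates 1 to 4. These values rest on 486 to 4263 UMIs per library, and the widest exact 95% interval, in Dlk1+ replicate 3, was 9.55% to 15.6%, which covers counting error only. The background share was thus nearly the same in all 8 libraries (12.6 ± 0.79%, SD), whereas the share in own cells ran from 9.50% to 28.6% of UMIs. Own cells lay above the unused barcodes in 6 libraries, by up to 14.9 percentage points. In replicate 4 they did not on the scale of UMIs: Dlk1+ cells had 9.50% against 11.4% (interval 10.4% to 12.3%), and Dlk1- cells 11.2% against 11.6% (interval 10.5% to 12.8%). On the scale of transcripts, Dlk1- cells of replicate 4 lay above, at 12.1% against 11.6%. Dlk1+ cells of replicate 4 stayed below, at 10.4% against 11.4%.

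The make-up of the unused barcodes also differed. They held 5 to 18.3 Gm10800 UMIs per Gm26870 UMI, against 2.00 to 4.998 in own cells, so the ranges nearly met. Within each library the unused barcodes had the higher ratio. The highest own value was that of Dlk1+ replicate 3, which was 5.26 in transcripts. LINE-1 members took 0.163% to 0.627% of the UMIs on unused barcodes, on 1 to 23 UMIs per library, against 0.227% to 1.01% in own cells. Within libraries the direction differed. The unused barcodes were higher in Dlk1- replicate 3 (0.627% against 0.349%) and replicate 4 (0.317% against 0.282%), and lower in the other libraries. Transcripts of the mitochondrial genome took 16.1% to 21.8% on unused barcodes, against 8.27% to 13.8% in own cells.

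Near-empty own wells gave a further level. Dlk1+ replicate 2 had 64 own barcodes under 200 transcripts, with 1879 UMIs, and 6.55% of those were member UMIs. Dlk1- replicate 2 had 60 such barcodes, with 3527 UMIs and 10.2% member UMIs. Both were below the unused barcodes of the same library, but for Dlk1+ replicate 2 the 2 sets are unlike. Its near-empty barcodes include some of the 10 barcodes, of which 1 held a kept cell, while the unused set leaves the 10 out. The part of this in the 6.55% was not tested. On the 10 barcodes that carry foreign transcripts, which are unused in the Dlk1- libraries, the members took only 1.12%, 1.39%, 1.01% and 0.712% of 5613 to 7411 UMIs. In the Dlk1+ libraries, where those barcodes hold cells, the members took 26.6% and 9.12% of their transcripts in replicates 1 and 4 (10 cells each).

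**Figure D5:**
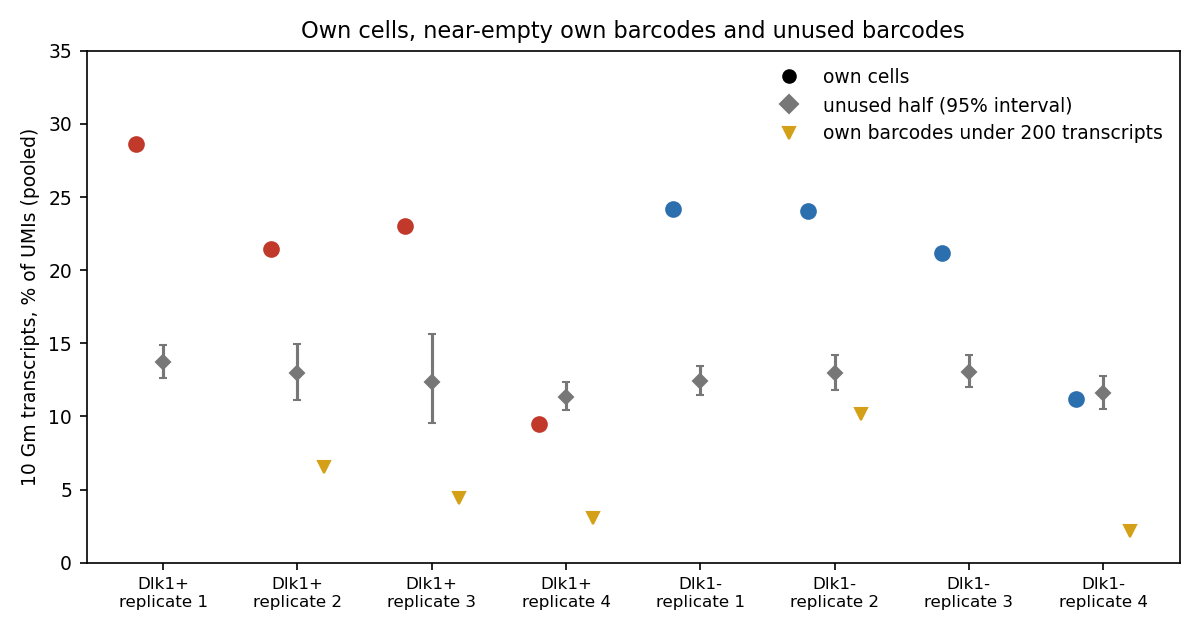
Pooled percent of UMIs in the 10 genes on own cells (circles, red for Dlk1+ and blue for Dlk1-), on unused barcodes outside the 10 (grey diamonds, exact 95% intervals) and on own barcodes under 200 transcripts (triangles), by library. The 10 barcodes were not left out of the triangles of Dlk1+ libraries. The diamonds stay between 11.4% and 13.7%, and the circles of replicate 4 do not lie above them.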

How the data were processed

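The 8 deposited tables hold 1 library each, with genes in rows and barcodes in columns. Their values are non-integer estimated transcript counts made by the authors, in which distinct UMIs were corrected for repeated draws from 4096 tags. This was read from the values, since inverting that correction gave whole UMIs within 3.64e-12. Reads were aligned with BWA 0.6.2-r126 and build mm10 was used, per the submitters' processing notes; counting, gene models and use of strand are not given in the sources used here. Doublets were not called.

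Here, transcripts of own barcodes with at least 1000 were summed per library, rounded and fitted in limma 3.58.1 (R 4.3.3): voom, TMM scaling, genes with at least 10 transcripts (scaled to the median library) in 4 libraries and 15 in all, all 8 libraries, group as the only term, Benjamini-Hochberg adjustment. The design had named a count test of another package; voom took its place because the deposited values are non-integer estimates. The code was tested on simulated data. Shares, correlations over cells and comparisons with unused barcodes are descriptions (Python 3.11.15, scipy 1.17.1), in recovered UMIs unless transcripts are named; intervals are exact Clopper-Pearson. Sequences and coordinates come from GENCODE M21; words are 21 bases, on either strand.

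Members, gene lists and the 10 barcodes were chosen with earlier results of these data known. Genes named beyond the members are the 10 highest and 5 lowest by likeness and, per list, the called genes or else the 2 highest and 2 lowest differences. Replicate numbers are shared between groups, and the main fit used no pairing. Over all tested genes, same-numbered libraries deviated together at r of 0.04 to 0.07 only, though more than libraries of other numbers. For the members, a replicate term lowered the errors, as given below.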

Additional observations from a re-analysis of the deposited data

Results flagged for a closer look

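With 4 libraries per group, 66 sets of 4 values were examined for a single library far from the other 3; chance marks about 1 set in 20, and 5 were marked. Dlk1+ replicate 1 stood above the other Dlk1+ libraries for Gm37954, at 0.14% of transcripts against 0.0429% to 0.0553%, and for Gm10719, at 0.017% against 0.00678% to 0.00763%. Dlk1+ replicate 4 stood out in spread over cells for Gm10717, with a dispersion of 19.05 against 2.68 to 3.94, and for Gm10719, with 6.36 against 1.59 to 1.82. The top cell for each gene held 53.8% of the former's and 50% of the latter's UMIs. The unused barcodes of Dlk1+ replicate 3 had 18.3 Gm10800 UMIs per Gm26870 UMI against 5.20 to 6.43 in the other Dlk1+ libraries, on 60 member UMIs.

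Own barcodes of 200 to under 1000 transcripts, used in no comparison, carried the members above the unused barcodes of their library. In Dlk1+ replicate 3 they were 61 barcodes with 42532 UMIs, 21.4% of them from members. The other cases are 48.2% on 4 barcodes of Dlk1+ replicate 2, 31.3% on 3 of Dlk1+ replicate 4, and 63.2% and 23.1% on 1 each of Dlk1- replicates 3 and 4.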

How the results depend on the processing

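No member was called at an adjusted p under 0.05 in any of the 20 alternatives, 19 with limma-voom and 1 with limma-trend; the lowest adjusted p of a member was 0.589. The 4 called genes became 1 with at least 2000 transcripts per barcode, 2 with at least 1000 non-member transcripts, without the 10 barcodes or with limma-trend, 15 with no low-count filter, and 4 to 17 leaving out 1 library (17, of which 9 lower, without Dlk1+ replicate 4). With the replicate block 6 genes were called, and it changed no member's call. It lowered the SE from 0.36 to 0.15 for Gm10800 and from 0.35 to 0.17 for Gm26870. Gm26870 was then at -0.38 (limma-voom, unadjusted p = 0.042, adjusted p = 0.739). Each library deviated most like the library of its own number (r of 0.04 to 0.07). Of the 200 member log2 differences under alternatives, 39 changed sign. Reversals apart from single libraries: with at least 2000 transcripts, Gm10800 -0.073, Gm37158 -0.079, Gm21833 -0.14 and Gm10717 -0.17; with at least 1000 non-member transcripts, Gm10800 -0.17, Gm37158 -0.11, Gm21833 -0.15 and Gm10717 -0.052; without cells over 2048 Gm10800 UMIs, Gm37158 -0.34, Gm21833 -0.18 and Gm10717 -0.26; with no filter, Gm10800 -0.026; with a plate term, Gm10717 -0.045; with limma-trend, Gm10717 -0.037; and without the 10 barcodes, Gm10719 0.031. The cause was not tested. Leaving out single libraries, differences spanned -0.28 to 0.48 for Gm10800, -0.50 to 0.33 for Gm37158, -0.83 to 0.0035 for Gm17615, -0.71 to 0.068 for Gm37954, -0.44 to 0.48 for Gm21833, -0.39 to 0.34 for Gm10717, -0.75 to 0.18 for Gm17555, -0.64 to 0.29 for Gm10719, -0.76 to -0.10 for Gm26870 and -0.92 to -0.03 for Gm21962. The mean member share stayed between 18.3% and 24.4%. The middle correlation of member pairs fell to 0.31 after thinning, which leaves fewer UMIs. The median rho with depth of -0.34 became 0.034 when all UMIs stood for depth, which changes the denominator. Own cells exceeded the unused barcodes by 6.83 to 11.6 percentage points on average in every alternative. The planned DESeq2 test was not run, nor was edgeR's. Alternatives with limma-trend, UMIs or cells over 2048 Gm10800 UMIs, those on the Gm10800 to Gm26870 ratio, and leaving out libraries in the comparison with unused barcodes were chosen after seeing the data.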

Other observations

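Repeat sequence was found in table genes beyond the 10 members and their nearest likes. Of 17407 table genes with an annotated transcript, 18 had at least 20% of the 21-base words of 1 of their transcripts in the LINE-1 members, the 4 members included, and 6 in the satellite members, again with the 4 members included. Among the LINE-1 cases are isoforms of 2 named protein-coding genes, Vps8 (43.2%), which takes part in endosomal sorting, and Mrpl48 (26.8%), a mitochondrial ribosomal protein; these were chosen after their values were seen.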
